A study of Arabidopsis thaliana with 36 samples.

Results

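MTP8 and ZIP9 are metal transporter genes of Arabidopsis thaliana, and each is read by 1 probe set among the 22746 non-control probe sets of the array. The members were chosen by gene, as the probe sets that the platform annotation assigns to the locus AT3G58060 (MTP8) and to ZIP9 (AT4G33020), so 2 genes are described across all 12 groups. RefSeq lists AT3G58060 by its locus code, and it is called MTP8 below.

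MTP proteins are cation diffusion facilitators, which move manganese, zinc and related metals out of the cytosol into vacuoles or other compartments, and MTP8 is known as a manganese carrier of the vacuole membrane. ZIP proteins work in the opposite direction and bring divalent metals into the cytosol. The root iron importer IRT1, itself a ZIP protein, also carries manganese and zinc, so roots that raise iron uptake take in these metals too, and MTP8 is known from the standard laboratory ecotype as part of the root iron deficiency response. ZIP9 is a candidate zinc transporter whose transcript is known to accumulate when zinc is short, under the zinc-sensing transcription factors bZIP19 and bZIP23.

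Kas-1 and Tsu-1 are natural inbred ecotypes, here called Kas and Tsu, whose roots and shoots were profiled on 36 one-colour arrays, 3 for each of 12 groups. In both ecotypes and both tissues, 1 group was without iron for 24 h, 1 without iron for 48 h, and 1 for 24 h on complete medium, in which Fe(III)-EDDHA supplied 50 µM iron. All plants were 24 d old at transfer, grew hydroponically on rockwool under a 16 h photoperiod and carried no engineered allele that the labels mention. No group on complete medium was taken at 48 h, and in the 48 h comparisons the lack of iron and 24 h of further growth cannot be told apart. Whether replicate arrays stem from independent plants or cultures is not in the labels. The p-values therefore reflect only how far these samples vary, and that variation may be technical.

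Sample titles name roots and shoots, although the protocol text for RNA extraction speaks of rosettes throughout. EXPA7, EXPA18 and PYK10, taken as 3 root markers, averaged 7.60 to 8.64 on the log2 scale in roots and 4.00 to 4.68 in shoots, and the mean of the photosystem genes PSAN and PSBW was 3.45 to 4.94 in roots and 11.4 to 11.8 in shoots, so each array followed its tissue label. Array medians over all probe sets lay between 4.91 and 5.14. Some arrays stood between the ecotypes. An index over 82 probe sets that separate the ecotypes at 48 h, where it averages 1 in Kas and 0 in Tsu by construction, lay more than 0.25 from the label on 11 arrays. In shoots these were all 3 arrays of Tsu at 24 h without iron (0.509 to 0.602). In roots they were 1 of 3 Kas arrays at 24 h without iron (0.529), 2 of 3 Kas arrays with iron (0.523 and 0.628), 3 of 3 Tsu arrays at 24 h without iron (0.495 to 0.683) and 2 of 3 Tsu arrays with iron (0.304 and 0.425). All 4 root comparisons of iron supply include such arrays, and the value without them is given beside each where one could be had. Such a value rests on 1 root array with iron, replicate 1 in Kas or replicate 2 in Tsu, so only its size is given.

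MTP8 was higher without iron in roots of both ecotypes at both times, and in shoots it passed the test in none of the comparisons. In Kas roots it read 5.33, 5.25 and 4.40 (log2 values of replicates 1, 2 and 3) at 24 h without iron and 4.89, 4.91 and 5.15 at 48 h without iron, against 3.13, 3.88 and 3.08 with iron. All 6 arrays without iron lay above all 3 arrays with iron. The level was 4.99 ± 0.51 at 24 h and 4.99 ± 0.15 at 48 h without iron and 3.36 ± 0.45 with iron (mean log2 ± SD, n = 3 each). Replicates 1 and 3 with iron lay within the range of the shoot arrays described below (2.52 to 3.43), close to the lower quartile of the arrays, so they may be at the floor of the measurement, and the folds given for Kas roots may then understate the change.

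At 24 h the change in Kas roots was 1.63 on the log2 scale (SE 0.37, limma adjusted p = 0.0341), or 3.10-fold with a 95% interval of 1.80 to 5.31. In this comparison 0.624% of all probe sets rose, 1.94% changed in either direction and 18.3% had no overlap between the groups. The call was close to the threshold: leaving out 1 array ended it for 5 of the 6 arrays. Among the arrays without iron the adjusted p became 0.0733 when replicate 1 was left out, 0.147 for replicate 2 and 0.0564 for replicate 3. Among those with iron it became 0.164 for replicate 1 and 0.168 for replicate 3. Without the 3 arrays between the ecotypes, which left 1 array with iron, the change was 1.70. With only the 6 arrays compared the limma adjusted p was 0.126.

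At 48 h in Kas roots MTP8 was higher by 1.62 on the log2 scale (SE 0.37, limma adjusted p = 0.0149), or 3.08-fold with an interval of 1.80 to 5.29, where 2.84% of probe sets rose, 6.73% changed and 27.8% did not overlap. Without the 2 Kas arrays with iron that lay between the ecotypes, which left only replicate 1 with iron, the change was 1.86. Leaving out 1 array ended this call for 3 of 6: the adjusted p was 0.0609 for replicate 3 without iron, and 0.0589 for replicate 1 and 0.0827 for replicate 3 with iron. A ribosomal control feature of the array (25S rRNA) averaged 6.08 ± 0.85 in Kas roots at 48 h without iron and 10.2 ± 0.47 with iron, and 10.6 ± 1.22 in Tsu roots at 48 h without iron and 9.70 ± 1.32 with iron (log2, SD, n = 3 each). This feature averaged 9.03 to 9.8 in the Kas shoot groups and 5.55 to 7.2 in the Tsu shoot groups. In Tsu roots a GAPDH control feature averaged 11.99 ± 0.14 at 24 h without iron and 10.9 ± 0.19 with iron. An actin feature averaged 9.83 ± 0.06 and 9.71 ± 0.10 in the same groups. The part of these control features in the results was not tested.

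**Figure D1:**
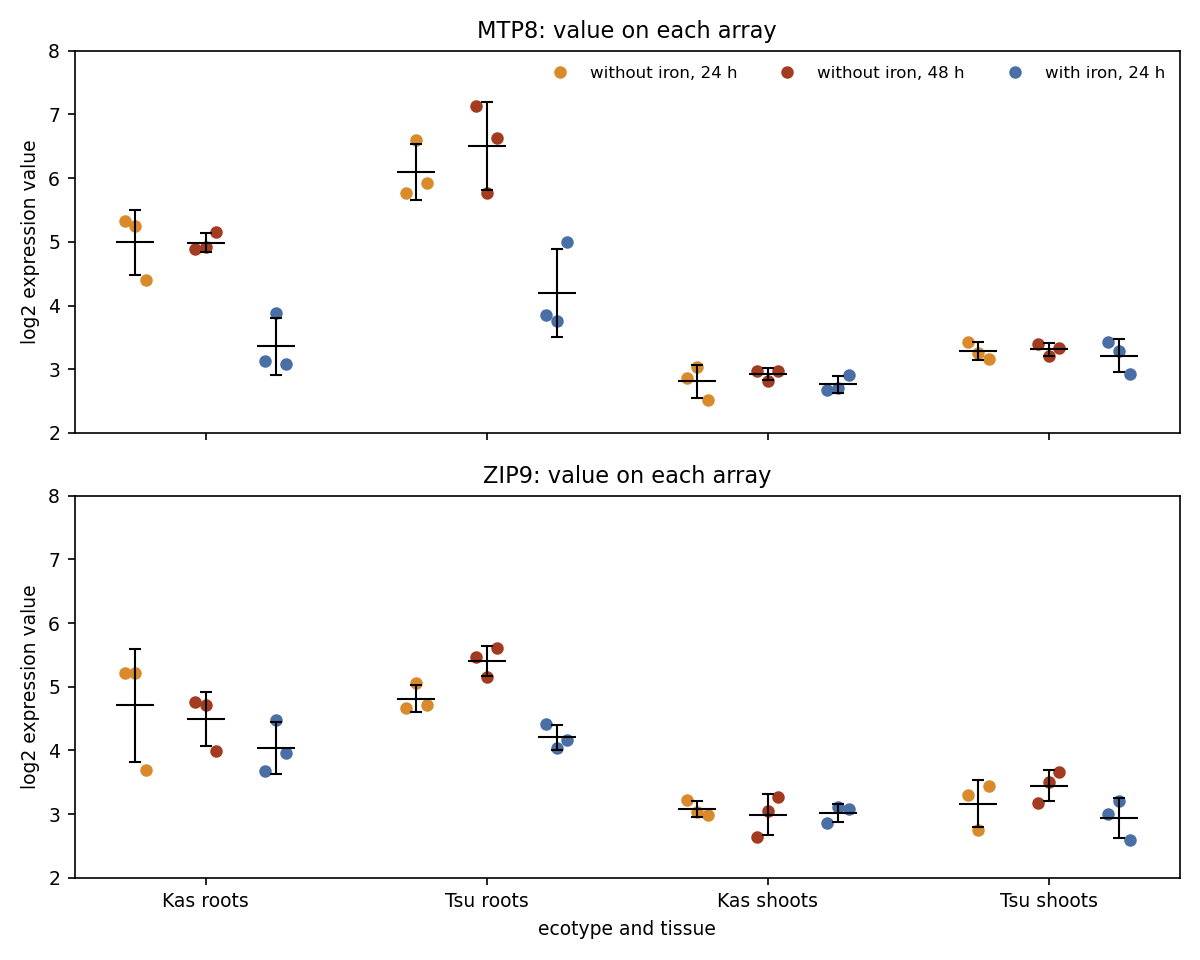
Log2 expression value of MTP8 (upper panel) and ZIP9 (lower panel) on each of the 36 arrays, by ecotype and tissue, with points for replicates and a bar with whiskers for the mean and SD of 3 arrays. In roots, all MTP8 points without iron lie above those with iron of the same ecotype, while in shoots all MTP8 points lie between 2.52 and 3.43.

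In Tsu roots MTP8 reached its highest values of the series. It read 5.77, 6.60 and 5.92 at 24 h without iron and 7.13, 5.77 and 6.63 at 48 h without iron, against 3.85, 3.76 and 4.996 with iron. Again no array without iron was as low as any array with iron, although replicate 3 with iron stood well above the other 2 arrays with iron, and its ecotype index was 0.425. The levels were 6.10 ± 0.44 and 6.51 ± 0.69 without iron at 24 h and 48 h and 4.20 ± 0.69 with iron (mean log2 ± SD, n = 3 each).

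These levels gave a log2 change of 1.90 at 24 h (SE 0.37, limma adjusted p = 0.00517), which is 3.73-fold with an interval of 2.17 to 6.39. Rises made up 4.92% of all probe sets here, 6.98% changed and 27.8% did not overlap. At 48 h the change was 2.31 (SE 0.37, adjusted p = 0.00463), which is 4.94-fold with an interval of 2.88 to 8.48, and 0.985% of probe sets rose, 1.62% changed and 17.2% did not overlap. Both calls held without each single array in turn, with adjusted p of at most 0.043 at 24 h and 0.0438 at 48 h. At 48 h, with only the 6 arrays compared, the limma adjusted p was 0.148. Leaving out the 2 Tsu arrays with iron between the ecotypes left only replicate 2 with iron and gave a 48 h change of 2.75. At 24 h no array without iron was close enough to its label for such a fit, and with the index as a covariate the change was 2.05 (adjusted p = 0.0159).

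Ordered by log2 change among 22746 probe sets, MTP8 stood at place 10 in Kas roots at 24 h, 49 in Kas roots at 48 h, 108 in Tsu roots at 24 h and 43 in Tsu roots at 48 h. The gene was chosen with earlier results of these data known, so its places are a description. By adjusted p, MTP8 was among 17 probe sets that rose in both ecotypes at 24 h (12% of the rises in Kas and 1.52% of those in Tsu) and among 23 at 48 h (3.57% and 10.3%). The ecotypes share no array. The 24 h and 48 h comparisons of 1 ecotype do share their arrays with iron, so they are not independent of each other. Within each ecotype the 48 h level was not shown to differ from the 24 h level: the difference was -0.01 in Kas roots, with an interval from -0.78 to 0.77, and 0.41 in Tsu roots, with an interval from -0.37 to 1.19 (limma adjusted p = 0.998 and 0.625). In shoots the 48 h minus 24 h difference was 0.11 in Kas and 0.03 in Tsu. For ZIP9 it was -0.21 and 0.60 in Kas and Tsu roots and -0.10 and 0.28 in Kas and Tsu shoots. Of these 8 differences in time 0 passed, and 0 had an unadjusted p below 0.05, where 0.277% and 7.87% of all probe sets passed in Kas and Tsu roots and 0.378% and 10.7% in Kas and Tsu shoots.

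Of the 2 markers of leaf tissue, PSAN passed the test of iron supply in 2 of 4 root comparisons and PSBW in 0. The mean of PSAN and PSBW was 3.79 ± 0.05 and 4.03 ± 0.15 at 24 h and 48 h without iron and 4.61 ± 0.42 with iron in Kas roots, and 3.54 ± 0.13 and 3.67 ± 0.13 without iron and 4.13 ± 0.29 with iron in Tsu roots (mean log2 ± SD, n = 3 each). The 3 root markers averaged 8.35 ± 0.21 and 8.40 ± 0.06 without iron and 8.11 ± 0.47 with iron in Kas roots, and 7.84 ± 0.24 and 7.93 ± 0.37 without iron and 8.40 ± 0.135 with iron in Tsu roots. PSAN fell in Kas roots at 48 h by 1.36 on the log2 scale (limma adjusted p = 0.00991) and in Tsu roots at 24 h by 1.02 (adjusted p = 0.0409), and its differences of -0.94 in Kas roots at 24 h and -0.52 in Tsu roots at 48 h did not pass. PSBW had differences of -0.70 and 0.19 in Kas roots and -0.16 and -0.41 in Tsu roots at 24 h and 48 h (adjusted p = 0.0661, 0.582, 0.639 and 0.292). Their part in the MTP8 result was not tested. In whole roots, fewer cells that express a gene and less RNA per cell cannot be told apart.

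In shoots MTP8 stayed low in every group. In Kas shoots it read 2.86, 3.04 and 2.52 at 24 h without iron and 2.98, 2.81 and 2.97 at 48 h without iron, against 2.67, 2.70 and 2.91 with iron. In Tsu shoots it read 3.43, 3.26 and 3.16 and then 3.40, 3.20 and 3.33 without iron, against 3.43, 3.28 and 2.92 with iron. The groups overlapped in all 4 comparisons, while 21%, 23.1%, 32.2% and 18% of all probe sets did not overlap in Kas at 24 h and 48 h and Tsu at 24 h and 48 h. These values lie near the lower quartile of the arrays, which was between 2.72 and 3.05, and no detection calls were used, so they may be at the floor of the measurement. The same holds for differences below that set roots against shoots or Kas shoots against Tsu shoots.

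The log2 changes of MTP8 in shoots were 0.05 and 0.16 in Kas and 0.07 and 0.10 in Tsu at 24 h and 48 h, with limma adjusted p from 0.649 to 0.93 and an unadjusted p below 0.05 in 0 of 4. Near the floor a change in transcript level can be compressed, so these values do not give its size. Shoot arrays without iron read at most 3.43, and root arrays without iron read 4.40 to 7.13. In the shoot comparisons of iron supply 1.86%, 4.11%, 16.1% and 4.34% of all probe sets changed.

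The difference between tissues was tested directly. The iron change of MTP8 in roots exceeded that in shoots by 1.58 (SE 0.41, limma adjusted p = 0.0311) at 24 h and 1.47 (SE 0.41, adjusted p = 0.024) at 48 h in Kas, and by 1.83 (SE 0.41, adjusted p = 0.00403) and 2.21 (SE 0.41, adjusted p = 0.00292) in Tsu. The shares of probe sets that passed this test were 2.86% and 8.29% in Kas and 8.05% and 2.41% in Tsu. All 4 comparisons passed. The calls in Tsu held without each array in turn, while those in Kas did not. All of these contrasts use arrays between the ecotypes. These were 2 of 3 root arrays with iron in each ecotype, which enter at both times. At 24 h without iron they were also all 3 Tsu arrays of each tissue and 1 Kas root array. Leaving out 1 array at a time keeps the others of them in the fit. At 24 h the Kas call held only without replicate 2 of the roots with iron, replicate 3 of the roots without iron or replicate 2 of the shoots without iron, and the adjusted p without any 1 of the other 9 arrays was 0.0523 to 0.102. At 48 h it was lost without replicate 3 of the roots or replicate 2 of the shoots without iron, or without replicates 1 or 3 of the roots or replicate 3 of the shoots with iron (adjusted p from 0.0543 to 0.0777). With only the 12 arrays compared, the adjusted p was 0.0565 in Kas at 24 h and 0.0814 in Tsu at 48 h.

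**Figure D2:**
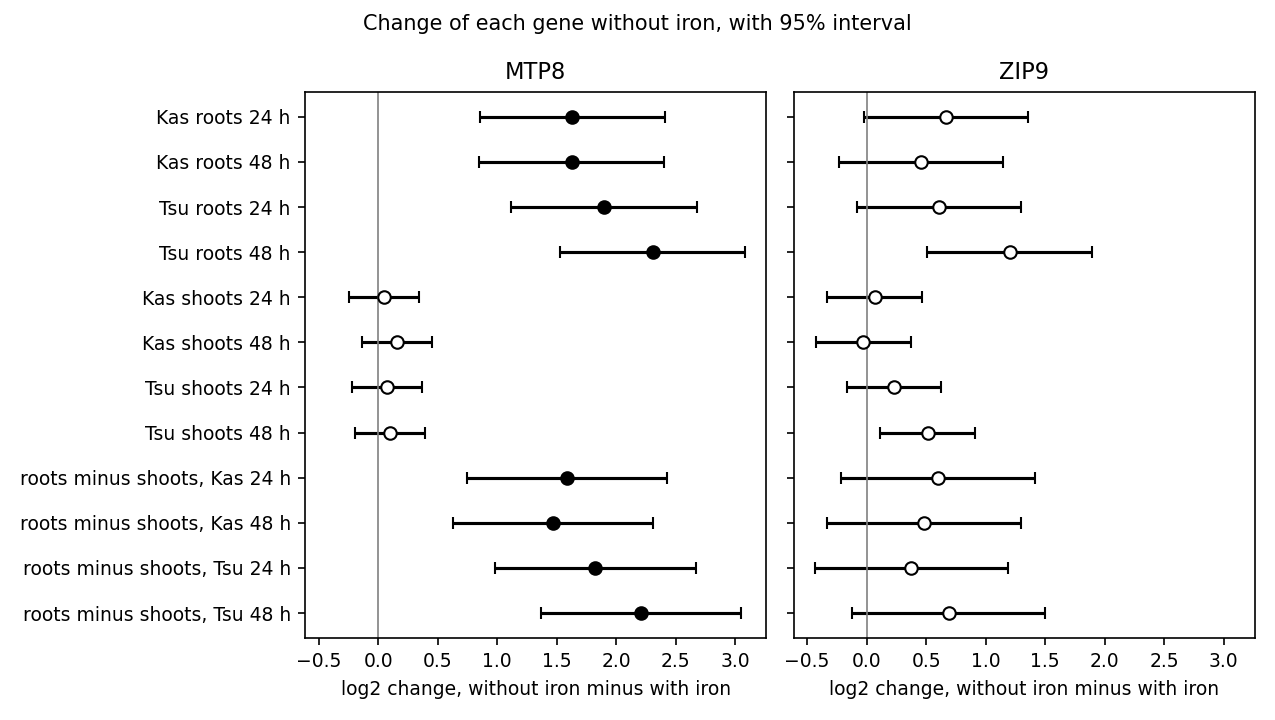
Log2 change of MTP8 (left) and ZIP9 (right), without iron minus with iron, for each ecotype, tissue and time, and below these the change in roots minus the change in shoots. Points are limma estimates, lines their 95% intervals, and filled points have an adjusted p below 0.05: for MTP8 the 4 root changes and the 4 tissue differences are filled, and for ZIP9 none is.

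ZIP9 was higher in roots than in shoots under every condition, and its change without iron did not pass the test in any comparison. In Kas roots it read 5.21, 5.22 and 3.69 at 24 h without iron and 4.76, 4.72 and 4.00 at 48 h without iron, against 3.68, 4.47 and 3.97 with iron. Replicate 3 was the lowest array of both groups without iron, and the groups overlapped at both times. The log2 difference was 0.67 at 24 h (SE 0.33, limma adjusted p = 0.375) and 0.45 at 48 h (SE 0.33, adjusted p = 0.435). Without replicate 3 without iron the 24 h difference was 1.17 (adjusted p = 0.0633). Without the arrays between the ecotypes, which left 1 array with iron, the differences were 0.78 at 24 h and 0.82 at 48 h.

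In Tsu roots ZIP9 read 4.67, 5.06 and 4.71 at 24 h without iron and 5.47, 5.15 and 5.61 at 48 h without iron, against 4.42, 4.03 and 4.17 with iron. Neither group without iron overlapped the group with iron, which was also so for 27.8% of all probe sets at 24 h and 17.2% at 48 h. The log2 difference was 0.61 at 24 h (SE 0.33, limma adjusted p = 0.276, interval from -0.08 to 1.30). At 48 h it was 1.20 (SE 0.33, adjusted p = 0.0744), a 2.30-fold difference with an interval of 1.425 to 3.71, and its unadjusted p was 0.0019. With all 36 arrays in 1 fit the 48 h difference passed (limma adjusted p = 0.00849). That fit pools the roots with the shoots, where the SE of a ZIP9 difference was smaller (0.19 against 0.33 in roots). Without the arrays between the ecotypes, which left 1 root array with iron, the 48 h difference was 1.38. Adding the ecotype index to the fit gave a 48 h difference of 0.89 (limma adjusted p = 0.219).

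In shoots ZIP9 lay between 2.59 and 3.66 on all 18 arrays. The log2 differences were 0.07 and -0.03 in Kas and 0.23 and 0.51 in Tsu at 24 h and 48 h. The last of these, from 3.18, 3.51 and 3.66 without iron against 3.01, 3.21 and 2.59 with iron, had an unadjusted p of 0.0142 and a limma adjusted p of 0.147, and the groups overlapped. Over the 8 iron comparisons limma called ZIP9 in 0, and its unadjusted p was below 0.05 in 2. The root minus shoot difference of the ZIP9 change was 0.38 to 0.69, with adjusted p from 0.4 to 0.647 and an unadjusted p below 0.05 in 0 of 4.

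Levels of ZIP9 in roots exceeded those in shoots by 1.62 in Kas and 1.65 in Tsu at 24 h without iron, by 1.50 and 1.96 at 48 h without iron, and by 1.02 and 1.27 with iron (log2 differences, limma adjusted p at most 0.00246). Roots and shoots did not overlap in any of these 6 comparisons. For MTP8 the root minus shoot differences were 2.18 in Kas and 2.81 in Tsu at 24 h without iron, 2.07 and 3.20 at 48 h without iron, and 0.60 and 0.99 with iron. Since the shoot values may be at the floor, no fold is given for them. Of the 6 MTP8 differences 5 passed, and the one in Kas with iron had an adjusted p of 0.0809. The Tsu difference with iron was 0.59 without replicate 3 of the roots (adjusted p = 0.0822). It was 0.55 without the 2 arrays between the ecotypes, which left 1 root array with iron. For ZIP9 the Kas difference with iron was 0.66 without such arrays, which also left 1 root array with iron. Tissue separates much of the array: between 53.8% and 56.8% of all probe sets passed in these comparisons (53.8% and 55.1% at 24 h without iron, 54.4% and 56.3% at 48 h without iron, 55.5% and 56.8% with iron), and 61.8% and 66.1%, 61.9% and 60.6%, and 62.7% and 57.1% in the same order had no overlap, so these counts are not particular to MTP8 or ZIP9.

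Ordered by group mean, MTP8 ran from Tsu roots at 48 h (6.51) and 24 h (6.10) without iron through Kas roots at 24 h and 48 h without iron (4.99 each), Tsu roots (4.20) and Kas roots (3.36) with iron to the 6 shoot groups, with Tsu shoots (3.31 to 3.21) above Kas shoots (2.92 to 2.76). Of 11 pairs of neighbours 4 differed by more than the larger SD, and 1, Tsu and Kas roots at 24 h without iron, had no overlap between arrays. In that comparison 36.9% of all probe sets had no overlap. For ZIP9 the order ran from Tsu roots at 48 h without iron (5.41) through Tsu (4.81) and Kas (4.71) roots at 24 h without iron, Kas roots at 48 h without iron (4.49), and Tsu (4.21) and Kas (4.04) roots with iron to the shoots (3.45 to 2.94). Only 2 of its 11 neighbouring pairs differed by more than the larger SD, namely Tsu roots at 48 h and at 24 h without iron, and Kas roots with iron and Tsu shoots at 48 h without iron. These 2 pairs also had no overlap between arrays. Neighbours were set by these same means, and no share over all probe sets is given for the other counts, so they only describe the order.

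MTP8 was lower in Kas than in Tsu in all 6 pairings of tissue, medium and time. Arrays of the ecotypes did not overlap in 5 of them, the exception being roots with iron. In roots at 48 h without iron Kas read 4.89 to 5.15 and Tsu 5.77 to 7.13, a log2 difference of -1.52 (SE 0.37, limma adjusted p = 0.00652), so that the Kas level was 0.349 of the Tsu level. This call held without each array in turn (adjusted p at most 0.0444), in a comparison where 24.7% of probe sets passed and 41.7% had no overlap. In roots the difference was -1.11 at 24 h without iron (adjusted p = 0.0634) and -0.84 with iron (adjusted p = 0.146), where 11.4% and 9.86% of probe sets passed and 36.9% and 25.9% did not overlap. With all 36 arrays in 1 fit both passed (limma adjusted p = 0.00778 and 0.0419). That fit pools the roots with the shoots, where the SE of an MTP8 difference was smaller (0.14 against 0.37 in roots). Both root comparisons use arrays between the ecotypes: 3 Tsu and 1 Kas array at 24 h without iron, and 2 arrays of each ecotype with iron.

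In shoots the Kas minus Tsu difference of MTP8 was -0.48 at 24 h without iron, -0.39 at 48 h without iron and -0.45 with iron (limma adjusted p = 0.0216, 0.0351 and 0.0183), where 20.2%, 36.7% and 33.2% of probe sets passed and 40.7%, 45.6% and 43.5% did not overlap. Leaving out 1 array ended the call at 24 h without iron for Kas replicate 3 and Tsu replicate 1 (adjusted p up to 0.13), at 48 h for each array but Tsu replicate 2 (up to 0.123), and with iron for replicates 1 and 2 of both ecotypes (up to 0.103). So did 1 fit of all 36 arrays (adjusted p = 0.293, 0.334 and 0.273). All Tsu arrays at 24 h without iron lay between the ecotypes. ZIP9 differed between the ecotypes in roots at 48 h without iron by -0.92 (SE 0.33, adjusted p = 0.04996), which did not pass without any 1 of the 6 arrays (adjusted p from 0.0567 to 0.211), and its other 5 differences did not pass. A difference in transcript level between ecotypes cannot be told apart here from a difference in sequence under the probes.

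The iron change itself was not shown to differ between the ecotypes for either gene. For MTP8, subtracting the Tsu change from the Kas change gave -0.27 at 24 h and -0.68 at 48 h in roots (limma adjusted p = 0.803 and 0.417), with 95% intervals from -1.37 to 0.83 and from -1.78 to 0.42. In shoots it was -0.03 and 0.06 (adjusted p = 0.959 and 0.925). For ZIP9 the root values were 0.06 and -0.75 (adjusted p = 0.955 and 0.313), with intervals from -0.92 to 1.04 and from -1.72 to 0.23, and the shoot values were -0.16 and -0.54 (adjusted p = 0.783 and 0.308). None of these 8 differences had an unadjusted p below 0.05, while 5.04% and 7.94% of all probe sets passed in roots and 11.2% and 3.94% in shoots. The intervals in roots are wide enough to include a change that differs 2-fold or more between the ecotypes. These contrasts use arrays whose ecotype is in doubt: at 24 h all 3 Tsu arrays without iron in each tissue had an index of 0.495 to 0.683, and the root contrasts at both times share the 2 Kas and 2 Tsu arrays with iron that lay between the ecotypes. Whether plants or RNA of the ecotypes were mixed on such arrays was not tested.

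The lists of genes for manganese and zinc handling, iron response and tissue markers held 108 loci, of which 30 were on a probe set that names 1 gene, and the others are not analysed here. Besides MTP8 and ZIP9, 13 genes of manganese and zinc transport, their regulators and enzymes were measured. In roots, 0 of 13 passed in Kas at 24 h and at 48 h by limma, 1 fell in Tsu at 24 h, and 2 rose in Tsu at 48 h. The unadjusted limma p was below 0.05 for 1 at each time in Kas, and for 2 and 5 in Tsu at 24 h and 48 h. Over all probe sets 1.94%, 6.73%, 6.98% and 1.62% changed by adjusted p in these comparisons. The counts that passed are small among 13 genes and are not read as a result about them. Their median log2 change was 0.01, -0.04, 0.08 and 0.05, against 0.03, 0.04, -0.03 and 0.00 over all probe sets.

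The 7 other measured MTP genes were MTP2 (MTPA1 in RefSeq), MTP6, MTP7, MTP9, MTP10, MTP11 and MTP12. MTP9, a close relative of MTP8 in the manganese branch of the family, was the one that passed in roots: it rose in Tsu at 48 h to 5.81 ± 0.34 without iron, against 5.01 ± 0.27 with iron (mean log2 ± SD, n = 3 each, change 0.80, limma adjusted p = 0.0222). In Kas roots at 48 h MTP9 had a log2 difference of -0.14, and the Kas change minus the Tsu change was -0.93 (adjusted p = 0.0237). MTP9 also rose in Tsu shoots at 48 h, by 0.85 (adjusted p = 0.00191). MTP11, a manganese carrier of the secretory pathway, had log2 differences of -0.38 and -0.21 in Kas roots and -0.25 and 0.05 in Tsu roots at 24 h and 48 h, and none passed. MTP6 had a log2 difference of -0.66 in Tsu roots at 48 h (adjusted p = 0.0552). MTP10 varied widely between the arrays with iron (SD 0.84 in Kas and 1.18 in Tsu roots), and its root differences of -0.42 to 1.23 did not pass.

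Among the remaining genes, the zinc sensor bZIP19 fell in Tsu roots at 24 h by 0.43 on the log2 scale (8.14 ± 0.16 without iron and 8.57 ± 0.12 with iron, n = 3 each, limma adjusted p = 0.0325). In the other 3 root comparisons its differences were -0.13 to 0.18 and did not pass. MSD2, a manganese superoxide dismutase, rose in Tsu roots at 48 h by 0.98 (adjusted p = 0.0419) and had a log2 difference of 0.59 in Kas roots at 48 h (adjusted p = 0.134). ZIP6, the other ZIP gene measured, had root differences of -0.29 to 0.22, with an adjusted p of at least 0.348. In shoots, PAM71, which carries manganese into the thylakoid lumen, fell in Tsu at 24 h by 0.93 on the log2 scale (adjusted p = 0.00596), MTP12 fell there by 0.57 and MTP10 rose there by 0.41 (adjusted p = 0.0129 and 0.0499). In that comparison 16.1% of all probe sets changed, and all 3 arrays without iron lay between the ecotypes. These changes are therefore not read as a result about manganese and zinc genes.

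**Figure D3:**
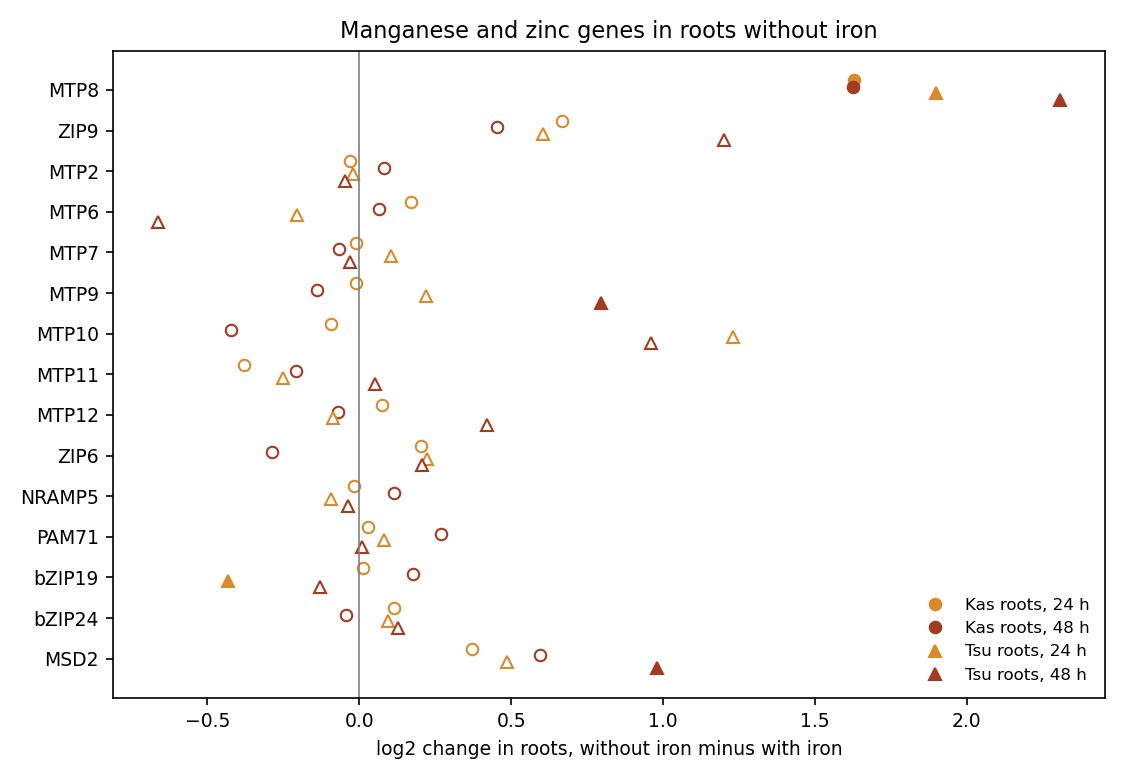
Log2 change in roots, without iron minus with iron, of MTP8, ZIP9 and the 13 other measured genes of manganese and zinc transport, regulation and enzymes. Circles are Kas and triangles Tsu, colours give the time without iron, and filled symbols have an adjusted p below 0.05. MTP8 is filled in all 4 comparisons, at 1.62 to 2.31.

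The iron change of MTP8 was set beside those of known root iron response genes. Of 11 probe sets for 10 such loci, 1 rose in Kas roots at 24 h, 7 in Kas roots at 48 h, 4 in Tsu roots at 24 h and 9 in Tsu roots at 48 h, and 0 fell in any of these. Over all probe sets 0.624%, 2.84%, 4.92% and 0.985% rose. The median log2 change of the 11 was 0.57, 0.79, 0.84 and 1.88 in that order. MTP8, with 1.63, 1.62, 1.90 and 2.31, lay above each median, which is a description, since gene and list were chosen with earlier results known. In shoots, 2, 3, 5 and 3 of the 11 rose in Kas at 24 h and 48 h and in Tsu at 24 h and 48 h (and 1 fell in Tsu at 24 h), among them AT1G47400, which encodes the IRON MAN signalling peptide IMA1, by 2.51, 3.58, 2.71 and 2.34. Over all probe sets 1.06%, 2.2%, 8.29% and 2.45% rose in these shoot comparisons.

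The genes most like MTP8 over the 18 root arrays were sought among 1560 named genes whose root group means spanned at least 1 on the log2 scale. The closest was AT3G13610 (Pearson r = 0.953), the hydroxylase gene that opens coumarin synthesis, followed by AT1G74770 (r = 0.93), entered in the list as BTSL1, an E3 ligase of iron signalling. Next came AT3G12900 (r = 0.904), whose product makes the iron-mobilising coumarin fraxetin, the glycosyltransferase gene UGT72E1 (r = 0.902) and AT2G28710 (r = 0.891). Over all 36 arrays the values were 0.787, 0.893, 0.949, 0.937 and 0.856. The first 3 belong to the list of root iron response genes. The arrays share treatments, ecotypes and tissues, so these values describe a common pattern across groups and carry no test.

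These genes did not all follow MTP8 in each comparison. AT3G13610 had log2 differences of 0.59 and 0.45 in Kas roots, which did not pass, and rose by 1.06 and 1.11 in Tsu roots (limma adjusted p = 0.00282 and 0.00694). It also rose in Kas shoots, by 1.26 and 1.43. UGT72E1 rose in all 4 root comparisons, by 1.85 and 1.92 in Kas and 1.13 and 1.74 in Tsu. It also rose in Tsu shoots, by 0.995 and 0.59 at 24 h and 48 h (limma adjusted p = 5.95e-06 and 0.00838). In Kas shoots at 24 h it fell, with a difference of -0.48 (adjusted p = 0.0462). AT2G28710 had root differences of 0.66 to 0.98, which did not pass, and fell in Kas shoots at 24 h, with a difference of -1.17 (adjusted p = 0.00164). AT3G12900 rose by 3.47 in Kas and 3.28 in Tsu roots at 48 h, and its differences of 2.12 and 1.31 at 24 h did not pass (adjusted p = 0.0612 and 0.168). In Tsu shoots at 24 h it fell, with a difference of -0.62 (limma adjusted p = 0.0399). AT1G74770, on the probe set with r = 0.93, rose by 1.48 in Kas roots at 48 h. In Tsu roots it rose by 1.24 and 1.88 at 24 h and 48 h. Its difference of 0.83 in Kas roots at 24 h and its shoot differences did not pass.

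For ZIP9 the closest genes were AT2G42660 (r = 0.808), AT3G59850 (r = 0.805), MTP8 itself (r = 0.797), AT3G12900 (r = 0.795) and AT5G38820 (r = 0.767). From the side of MTP8, ZIP9 ranked at place 14 of 1560. Of the 4 genes other than MTP8, AT5G38820 rose in Kas roots at 48 h by 1.79 (limma adjusted p = 0.00617) and in Tsu roots at 48 h by 2.85 (adjusted p = 0.000344). AT2G42660 and AT3G59850, like ZIP9, passed in none of the 4 root comparisons.

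**Figure D4:**
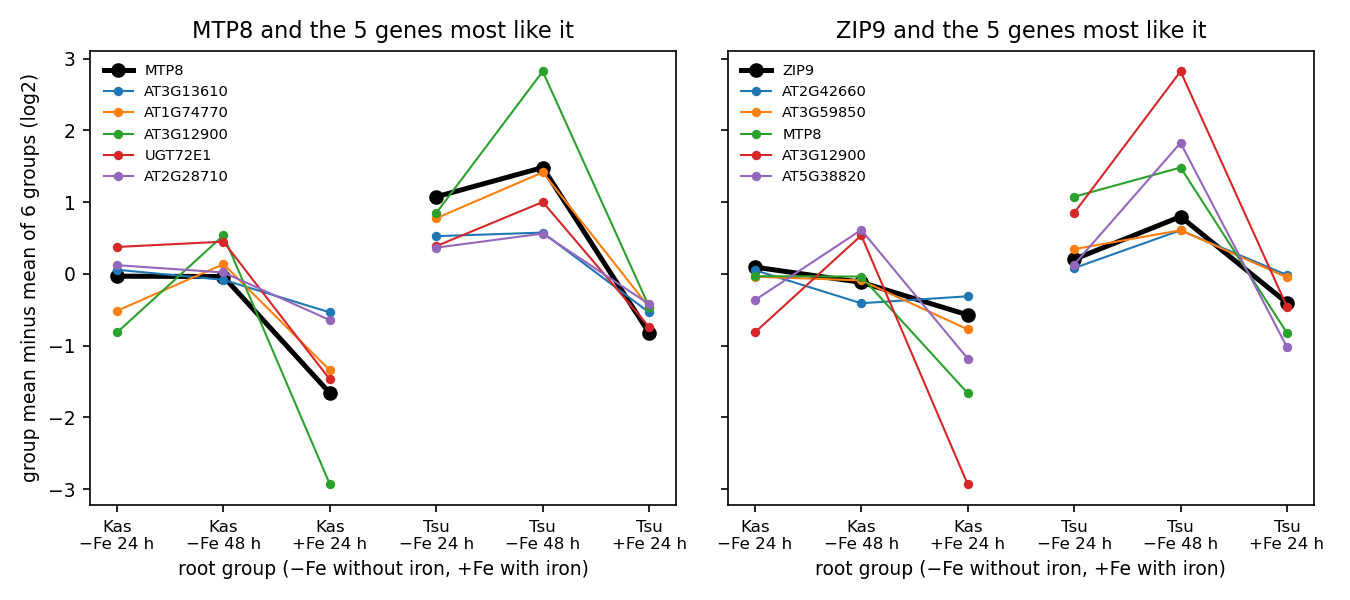
Root group means of MTP8 (left) and ZIP9 (right), in black, and of the 5 genes most correlated with each over 18 root arrays, each centred on its mean over the 6 root groups (log2). Within each ecotype MTP8 has its lowest group with iron; ZIP9 likewise has its lowest group with iron in both ecotypes.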

How the data were processed

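The table of the whole series holds 1 value per probe set and array. The deposited values are log2 expression values, as the values themselves show (1.31 to 13.47). How the authors corrected background, summarised probes and normalized, and with which software, is not given in the sources used here. Of 22810 probe sets, 64 controls were left out and 22746 tested, with no filter on dim ones. Gene names came from the platform annotation, which gives 1 gene to 13513 probe sets, several to 503 and leaves 8730 unnamed here, updated through Entrez identifiers to RefSeq names (assembly TAIR10.1, 13436 matched). No columns were left unmapped, 0 pairs of arrays were identical (highest correlation 0.996), and for 5 arrays the best-correlated array belonged to another group. The number of arrays limits the precision.

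Comparisons used limma 3.58.1 in R 4.3.3 (lmFit and eBayes, two-sided, Benjamini-Hochberg over all 22746 probe sets, calls at adjusted p below 0.05) fitting a mean for every group. Roots and shoots were fitted separately (18 arrays each), and comparisons between tissues used all 36. In all 32 comparisons were made for each gene. Samples were grouped by title. The ecotype index averaged probe sets whose Kas and Tsu values at 48 h differed in the mean by at least 2 (log2), the same way and without overlap in both tissues, members left out. The members and lists were chosen with earlier results of these data known. Any member of a list could be named with its value, called members first, and for each gene the 5 most correlated genes. The procedure was run on simulated data with independent arrays and none between the ecotypes, so that run does not bear on such arrays. Alternatives were the arrays in the fit, a replicate block, quantile normalization, removal of dim probe sets, an intensity trend, the index as covariate, removal of arrays between the ecotypes, and leaving out each array. Replicate numbers are shared between groups, but deviations from the group means of same-numbered arrays did not correlate (mean r -0.004 in roots and -0.019 in shoots, over 45 pairs each).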

Additional observations from a re-analysis of the deposited data

Results flagged for a closer look

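The change of MTP8 without iron differed between tissues by a test of the difference itself. The root change exceeded the shoot change by 1.58 (SE 0.41) in Kas at 24 h, 1.47 (SE 0.41) in Kas at 48 h, 1.83 (SE 0.41) in Tsu at 24 h and 2.21 (SE 0.41) in Tsu at 48 h on the log2 scale, with limma adjusted p of 0.0311, 0.024, 0.00403 and 0.00292. Leaving out 1 array ended the Kas call for 9 of 12 arrays at 24 h and for 5 of 12 at 48 h (adjusted p up to 0.102 and 0.0777). The shoot values may be at the floor of the measurement. Each contrast uses root arrays with iron that lay between the ecotypes, and at 24 h all Tsu arrays without iron lay between them. Groups of 3 arrays were not searched for outlying arrays.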

How the results depend on the processing

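MTP8 was called higher without iron in all 4 root comparisons under a fit of all 36 arrays, a replicate block, quantile normalization, an intensity trend and the ecotype index as covariate, at 1.62 to 2.36. With only the arrays compared, 2 of 4 passed: the change was 1.63 in Kas at 24 h (adjusted p = 0.126) and 2.31 in Tsu at 48 h (0.148). Without the arrays between the ecotypes, which left 1 root array with iron in each ecotype, 3 of the 4 comparisons had a value, from 1.70 to 2.75. ZIP9 in Tsu roots at 48 h, 1.20, passed with all 36 arrays (0.00849), a fit that pools the roots with the less variable shoots. With the replicate block the adjusted p of MTP8 in roots was 0.04999, 0.0239, 0.0109 and 0.0103 in Kas and Tsu at 24 h and 48 h, and the block changed no call of either gene. Same-numbered arrays share only a number: their deviations correlated at -0.391 to 0.27 in roots and -0.21 to 0.106 in shoots. Other calls were lost under some settings. Under quantile normalization Kas minus Tsu did not pass for MTP8 in shoots at 24 h (-0.43, adjusted p = 0.0507) and 48 h (-0.31, 0.112) without iron, or for ZIP9 in roots at 48 h (-0.80, 0.0928). Under the intensity trend it did not pass for MTP8 in shoots at 48 h (-0.39, 0.0527), and with the index as covariate roots minus shoots did not pass for ZIP9 in Kas with iron (0.69, 0.0532). Without dim probe sets neither gene stayed in the test, so that setting gave no value. The cause of these shifts was not tested. Signs turned only in differences that did not pass. Under quantile normalization ZIP9 was 0.0222 for iron in Kas shoots at 48 h, and MTP8 0.0278 for ecotype by iron in shoots at 24 h. ZIP9 was 0.0256 and 0.0045 for Kas minus Tsu at 24 h without iron in roots and shoots, and MTP8 0.0365 and -0.0144 for 48 h minus 24 h in Kas roots and Tsu shoots. With the index as covariate the 48 h minus 24 h difference was 0.0605 in Kas roots and -0.41 in Tsu shoots for MTP8, and -0.0472 in Tsu roots and -2.10 in Tsu shoots for ZIP9. Without the arrays between the ecotypes it was 0.16 for MTP8 and 0.0394 for ZIP9 in Kas roots.

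Leaving out each array in turn gave these lowest and highest values. For iron, MTP8 was 1.46 to 1.92 in Kas roots at 24 h and 1.48 to 1.88 at 48 h, -0.0713 to 0.19 in Kas shoots at 24 h, and -0.0715 to 0.18 and -0.0444 to 0.21 in Tsu shoots at 24 h and 48 h. ZIP9 was -0.0126 to 0.11 and -0.17 to 0.15 in Kas shoots at 24 h and 48 h. For ecotype by iron, MTP8 was -0.67 to 0.0267 in roots at 24 h, -0.14 to 0.12 in shoots at 24 h and -0.0516 to 0.20 in shoots at 48 h, and ZIP9 was -0.20 to 0.57 in roots and -0.37 to 0.0101 in shoots at 24 h. For Kas minus Tsu, ZIP9 was -0.36 to 0.40 in roots and -0.29 to 0.0618 in shoots at 24 h without iron, and -0.39 to 0.0125 in roots and -0.09 to 0.22 in shoots with iron. For 48 h minus 24 h, MTP8 was -0.30 to 0.16 in Kas roots, -0.0319 to 0.23 in Kas shoots and -0.036 to 0.10 in Tsu shoots, and ZIP9 was -0.72 to 0.0439 in Kas roots and -0.24 to 0.0808 in Kas shoots.

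The 3 arrays per group limit all comparisons, and values near the floor limit those that use shoots or Kas roots with iron.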
